A study of Mus musculus with 6 samples.

Results

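The EGF-like growth factors and their receptors were followed as 9 genes: the ligand genes Areg, Ereg, Btc, Hbegf and Tgfa and the receptor genes Egfr, Erbb2, Erbb3 and Erbb4. The members were listed by name and matched to gene identifiers, and all 9 were found among the 49315 genes of each count file. The family was selected on the CPM values of Areg and Ereg, which earlier work on these files had shown to be high in 1 library. Their levels are therefore given as a description, with no test. The RNA came from freshly isolated granulosa cells, the somatic cells that surround the oocyte in ovarian follicles. The mice were C57BL/6J females aged 8 to 9 weeks, with 3 libraries labelled wild type (WT) and 3 labelled Jmjd3 knockout (KO). The deletion is described as granulosa cell-specific, and it removes Jmjd3, also named Kdm6b, a histone H3K27 demethylase. The sources used here do not name the Cre line, the exons removed, the cycle stage or any hormone treatment. They also do not say that each library came from its own animal, so a p-value covers only the spread between libraries, and that spread may be technical.

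EGF-like ligands are made as membrane-anchored precursors, and cell-surface proteases of the ADAM family release them. The released ligand binds a receptor of the ERBB family, receptors pair up, and the paired kinases signal through RAS to the kinases MEK and ERK. In the ovulatory follicle the luteinizing hormone surge acts on mural granulosa cells, which then make amphiregulin, epiregulin and betacellulin. These carry the signal to the cumulus cells around the oocyte, where they drive matrix expansion and the resumption of meiosis.

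Gene counts summed to between 42379018 and 49901493 per library. Levels are CPM, counts scaled to the library size after TMM normalization. Differences between groups are log2 fold changes of KO over WT with their SE, fitted in edgeR (quasi-likelihood test, Benjamini-Hochberg adjustment across the 18250 genes tested). Granulosa cell markers were present in every library, with Foxl2, a granulosa cell transcription factor gene, between 106 and 129 CPM. Kdm6b RNA did not separate the groups (68.4 ± 3.76 CPM in WT and 81.9 ± 26.5 CPM in KO, SD, n = 3, with 112 CPM in KO replicate 3). Counts over the whole gene can hold reads from exons that were kept, so the genotype rests on the labels. Among marker lists of granulosa cells and 6 other cell types 1 gene was called by edgeR, the red blood cell gene Slc4a1 (log2 fold change 2.13 ± 0.32 SE, adjusted p = 0.0406). Over all tested genes 0.219% were called. All 7 red blood cell markers were higher in KO without overlap, and groups did not overlap for 15.6% of all tested genes. Of 12 oocyte markers, 11 had a negative fold change. An unadjusted p under 0.05 (edgeR) was reached by 9 of the 12 (75%), against 9.16% of all tested genes. Kit, the 1 oocyte marker with a positive fold change, was among the 9. DESeq2 also called the oocyte markers Gdf9, lower in KO, and Kit, higher in KO. Without KO replicate 3, 6 such markers were called, in the red blood cell, oocyte, immune and theca lists, and 2.26% of all tested genes were called. Of the 2 oocyte markers among them, Kit was higher in KO and Zp3 lower. KO replicate 3 stood apart from the other 5 libraries: 12 tested genes were more than 10-fold higher there than in the next highest library, and 0 genes were so in any other library. The members are therefore given by library, and their differences with and without KO replicate 3. In bulk samples, fewer cells of a type and less RNA per cell cannot be told apart.

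Areg, Ereg and Btc lie close together on chromosome 5 of GRCm38, with a further EGF family ligand gene, Epgn (epigen), beside them. Ereg spans 91074622 to 91093646 and Areg spans 91139599 to 91148432, both on the plus strand and 46.0 kb apart. Btc lies on the minus strand at 91357261 to 91402994, 209 kb beyond Areg, and Epgn ends 39.4 kb before Ereg. The promoters of Areg, Epgn and Btc are shown because these 3 genes and Ereg were highest in the same library, as described below. Each run is RefSeq sequence of GRCm38.p6, from 250 bases before to 50 bases after the RefSeq start of the gene, 5′ to 3′ on the gene's own strand. For Areg and Btc that start is also the start in the count annotation, and for Epgn it lies 53 bases downstream of it. Capitals mark TGACG on either strand, the core of the cyclic AMP response element to which CREB family proteins bind; on the opposite strand it reads CGTCA.
Areg (chr5:91139349-91139648, plus strand): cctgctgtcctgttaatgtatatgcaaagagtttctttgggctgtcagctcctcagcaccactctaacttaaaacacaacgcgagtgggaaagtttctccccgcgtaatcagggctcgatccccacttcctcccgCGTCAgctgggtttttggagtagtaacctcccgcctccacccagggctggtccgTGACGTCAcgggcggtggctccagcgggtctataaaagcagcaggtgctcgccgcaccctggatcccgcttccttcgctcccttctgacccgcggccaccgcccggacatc
Epgn (chr5:91027267-91027566, plus strand): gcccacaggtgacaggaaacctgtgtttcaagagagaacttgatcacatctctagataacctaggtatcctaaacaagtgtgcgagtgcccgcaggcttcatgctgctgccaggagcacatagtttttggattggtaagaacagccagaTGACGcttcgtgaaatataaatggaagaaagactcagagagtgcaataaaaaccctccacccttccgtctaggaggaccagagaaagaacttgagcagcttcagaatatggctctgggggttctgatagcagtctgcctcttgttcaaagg
Btc (chr5:91402945-91403244, minus strand): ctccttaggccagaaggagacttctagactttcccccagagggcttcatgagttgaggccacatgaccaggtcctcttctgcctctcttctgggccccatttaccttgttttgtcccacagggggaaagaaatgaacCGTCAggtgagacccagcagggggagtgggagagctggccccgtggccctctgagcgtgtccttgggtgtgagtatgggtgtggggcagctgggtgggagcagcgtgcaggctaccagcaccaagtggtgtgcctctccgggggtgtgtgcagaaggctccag
The Areg promoter held the full palindrome TGACGTCA, which starts 61 bases before the gene's start and contains TGACG on both strands, and a further CGTCA that starts 115 bases before it. The Epgn and Btc promoters each held TGACG or its complement once. Of the 32851 mouse promoters of this length, 1.79% held TGACGTCA and 20.8% held TGACG on either strand. Promoters were matched for 6 of the 9 members (Areg, Btc, Tgfa, Egfr, Erbb2 and Erbb4). Among these and Epgn, TGACGTCA was found in Areg alone, and TGACG also in Erbb2. The GC-box core GGGCGG occurred 2 times in Areg, 2 times in Tgfa and 1 time in Egfr, and in 35.7% of all promoters. TTNNGNAA, a loose form of the C/EBP site, occurred 1 time each in Erbb2 and Erbb4 and in 40.7% of all promoters. TGANTCA, the AP-1 site (7.81% of all promoters), and AAGGTCA, the core of the site of NR5A and NR4A receptors (4.72%), had no match in the 7 windows. A match is a run of letters and not evidence that a factor binds there.

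Areg encodes amphiregulin, the ligand released in quantity by mural granulosa cells at ovulation. It stood at 0.409, 0.504 and 0.476 CPM in the WT libraries (replicates 1 to 3), at 0.981 and 0.400 CPM in KO replicates 1 and 2, and at 241 CPM in KO replicate 3. KO replicate 3 was thus 246-fold above the next highest library, while KO replicate 2 was level with WT replicate 1 and the groups overlapped. In counts, KO replicate 3 held 11615 and the other libraries held between 17 and 46. KO replicate 1 was the second highest library, at 46 counts, with an exact Poisson 95% interval of 0.718 to 1.31 CPM. That interval met the interval of WT replicate 2 (0.323 to 0.749 CPM) and lay above those of WT replicate 1 (0.253 to 0.625 CPM), WT replicate 3 (0.305 to 0.708 CPM) and KO replicate 2 (0.233 to 0.641 CPM). Such intervals cover counting error only.

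Ereg encodes epiregulin, which acts beside amphiregulin in the follicle. It stood at 0.564, 1.11 and 1.31 CPM in the WT libraries, at 1.15 and 1.13 CPM in KO replicates 1 and 2, and at 261 CPM in KO replicate 3. KO replicate 3 was 199-fold above the next highest library, WT replicate 3, and the other KO libraries lay within the WT range. Areg and Ereg had the largest and the second largest ratio of highest to next highest library among the 18250 tested genes, and they were the only 2 with a ratio above 100. As a description, the log2 fold changes of KO over WT were 7.45 for Areg and 6.46 for Ereg, and without KO replicate 3 they were 0.59 and 0.20. Ereg shares 141 of its 4128 exon bases with Gm19610, an antisense gene with 109 counts in KO replicate 3 and 8 to 19 elsewhere, and whether counting used strand is not stated.

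Btc encodes betacellulin, the third of the ligands induced at ovulation. It stood at 4.59, 5.69 and 5.06 CPM in the WT libraries, at 4.50 and 4.22 CPM in KO replicates 1 and 2, and at 9.37 CPM in KO replicate 3. KO replicate 3 was 1.65-fold above the next highest library, and the other 2 KO libraries lay below each WT library. The difference between groups did not exceed the spread between libraries (log2 fold change 0.24 ± 0.31 SE, adjusted p = 0.846, edgeR), and its sign turned without KO replicate 3 (-0.23, adjusted p = 0.545).

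**Figure D1:**
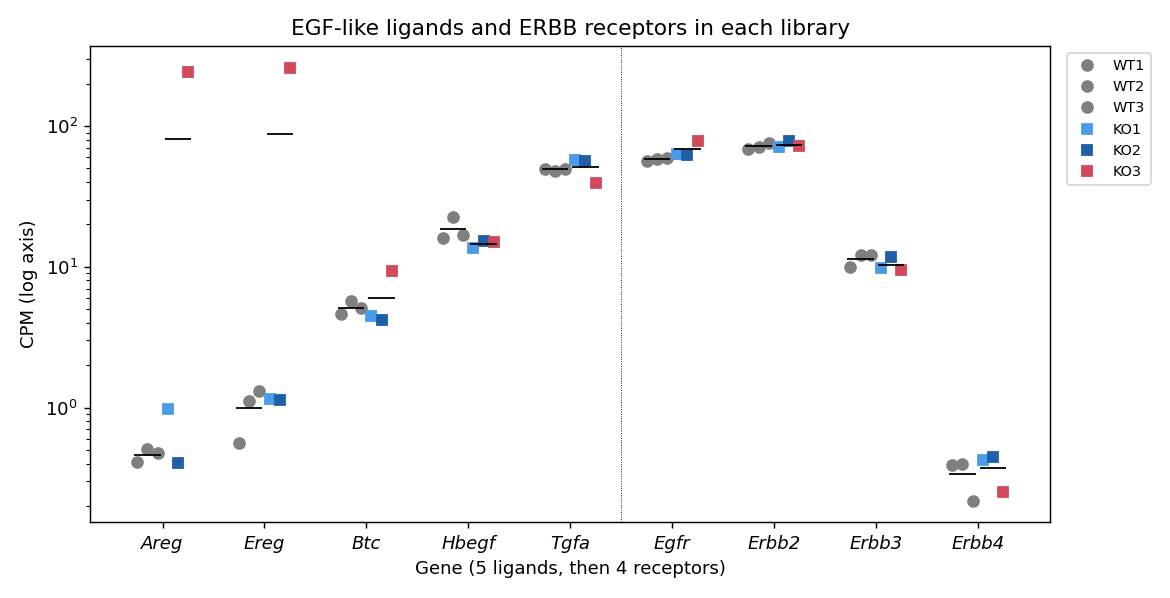
CPM on a log axis for the 9 genes, with circles for WT libraries, squares for KO libraries and black lines at the group means (n = 3). KO replicate 3 stands at 241 CPM for Areg and 261 CPM for Ereg, while Egfr and Erbb2 lie between 56.1 and 78.8 CPM in the 6 libraries.

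Hbegf and Tgfa did not share that pattern. Hbegf (chromosome 18, 36504929 to 36515805) encodes heparin-binding EGF-like growth factor, and stood at 15.9, 22.8 and 16.9 CPM in the WT libraries and at 13.7, 15.2 and 14.9 CPM in the KO libraries. Each KO library lay below each WT library, by a small margin for 2 of the 3 WT libraries. The log2 fold change was -0.34 ± 0.14 SE (95% interval -0.65 to -0.04), which did not pass over all genes (adjusted p = 0.484, edgeR). It was -0.36 without KO replicate 3 (adjusted p = 0.264) and -0.18 without WT replicate 2, the highest library (adjusted p = 0.728). Epithelial markers of the ovarian surface and the oviduct summed to 662, 858 and 824 CPM in WT replicates 1 to 3 and to 708, 646 and 501 CPM in KO, with WT replicate 2 highest as for Hbegf. The orders differed otherwise: the marker sum was lowest in KO replicate 3 and Hbegf in KO replicate 1, where the marker sum was above that of WT replicate 1. Of these 13 markers, 12 had a negative fold change, as had 8956 of the 18250 tested genes, and none was at 0 in any library. The 12 oocyte markers summed to 716, 701 and 907 CPM in WT replicates 1 to 3 and to 616, 591 and 647 CPM in KO. By that sum, as for Hbegf, each KO library lay below each WT library, although Kit among these markers was higher in KO. The oocyte sum was highest in WT replicate 3 and lowest in KO replicate 2, unlike Hbegf. The part of either marker list in the Hbegf values was not tested.

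Tgfa (chromosome 6, 86195223 to 86275719) encodes transforming growth factor alpha, a ligand of the EGF receptor. It stood at 49.9, 48.3 and 49.5 CPM in the WT libraries, at 57.1 and 56.4 CPM in KO replicates 1 and 2, and at 39.7 CPM in KO replicate 3. The WT libraries lay close together, KO replicates 1 and 2 lay above all of them and KO replicate 3 below all of them. The groups did not differ beyond the spread between libraries (0.05 ± 0.13 SE, adjusted p = 0.927, edgeR), with a 95% interval of -0.25 to 0.35. It shares 118 of its 6490 exon bases with Gm43917 on the other strand, which held at most 4 counts. Without KO replicate 3 the fold change was 0.21, and the adjusted p of 0.164 was the lowest that any of the 7 members besides Areg and Ereg reached under any alternative. The 9 endothelium markers were in a similar order, with sums of 154 to 196 CPM in WT and of 300, 207 and 139 CPM in KO replicates 1 to 3. The 12 immune cell markers summed to 133 to 169 CPM in WT and to 221, 167 and 120 CPM in KO. None of the markers of either list was at 0, and their part in the Tgfa values was not tested.

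Of the receptors, Egfr was highest in KO replicate 3, and the groups overlapped for the other 3. Egfr (chromosome 11, 16752203 to 16918158) encodes the EGF receptor, which binds all 5 ligands. It stood at 56.1, 58.4 and 59.2 CPM in the WT libraries and at 63.0, 62.8 and 78.8 CPM in the KO libraries. All 3 KO libraries lay above all 3 WT libraries, and KO replicate 3 lay furthest. The log2 fold change of 0.24 ± 0.09 SE (95% interval 0.03 to 0.45) did not pass over all genes (adjusted p = 0.482, edgeR), and it was 0.12 without KO replicate 3 (adjusted p = 0.470). Granulosa cell markers summed to 10947 to 12264 CPM in WT and to 12953, 12326 and 17776 CPM in KO. Of the 12, 10 were highest in KO replicate 3, as were 21.8% of all tested genes. Inha alone stood at 10007 CPM there and at 6401 to 8054 CPM elsewhere. The rise was uneven, and Cyp19a1 and Inhba had the largest ratios to the next highest library. Cyp19a1 stood at 1113 CPM in KO replicate 3 and at 190 to 319 CPM elsewhere, and Inhba at 2202 CPM against 895 to 1152 CPM. Amh was lowest there, at 719 CPM against 793 to 1096 CPM elsewhere. Esr2, at 186 CPM there, lay within its WT range of 173 to 197 CPM. The part of these markers in the Egfr values was not tested.

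Erbb2 (chromosome 11, 98412470 to 98437716) encodes the co-receptor that binds no ligand of its own. It stood at 69.0, 71.1 and 76.1 CPM in the WT libraries and at 71.6, 78.0 and 72.2 CPM in the KO libraries. The groups overlapped almost wholly (0.04 ± 0.07 SE, 95% interval -0.12 to 0.19, adjusted p = 0.895, edgeR). It shares 9 of its 5210 exon bases with Mien1 on the other strand. Erbb3 (chromosome 10, 128567523 to 128589652) encodes the neuregulin receptor with a nearly inactive kinase. It stood at 10.02, 12.2 and 12.1 CPM in the WT libraries and at 9.75, 11.8 and 9.51 CPM in the KO libraries, again with overlap (-0.14 ± 0.13 SE, adjusted p = 0.753, edgeR). Erbb4 (chromosome 1, 68032186 to 69108059) encodes a receptor for neuregulins and several EGF-like ligands. It was near the lower end of detection, with 11 to 20 counts per library, at 0.389, 0.399 and 0.218 CPM in the WT libraries and 0.427, 0.447 and 0.249 CPM in the KO libraries. Without KO replicate 3 the log2 fold changes were 0.05 for Erbb2, -0.09 for Erbb3 and 0.38 for Erbb4 (adjusted p from 0.714 to 0.819, edgeR). At this depth only large differences in Erbb4 could have been seen (0.15 ± 0.37 SE, 95% interval -0.67 to 0.97, adjusted p = 0.925, edgeR).

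All 9 genes passed the filter on low counts. Areg and Ereg, whose levels chose the family, are left out of the counts of calls. Of the other 7 members, 0 were called in either direction by edgeR, where 0.219% of all tested genes were called. At an unadjusted p under 0.05 there were 2 of 7 (Hbegf and Egfr), against 9.16% of all tested genes. DESeq2 and limma-voom each called 0 of 7. Without KO replicate 3, edgeR called 0 of 7 and 2.26% of all genes. The groups did not overlap for 2 of 7, again Hbegf and Egfr, and for 15.6% of all tested genes.

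Levels of different genes were compared as CPM per kilobase of exon. In the 5 libraries other than KO replicate 3, Tgfa made up 39.2 to 52.8% of the summed level of the 5 ligands and Hbegf 34.7 to 50.6%. In the WT libraries their ranges overlapped, at 7.44 to 7.69 CPM per kilobase for Tgfa and 6.71 to 9.60 for Hbegf. In KO replicates 1 and 2 Tgfa was above Hbegf, at 8.80 and 8.70 against 5.77 and 6.41 CPM per kilobase, and in KO replicate 3 they stood at 6.12 and 6.28. Btc made up 5.60 to 6.76%, Areg 1.98 to 4.85% and Ereg 0.861 to 1.92% of the sum. In KO replicate 3, Areg made up 71.9% and Ereg 22.9%, while Tgfa made up 2.22% and Hbegf 2.28%. The 5 ligands together reached 276 CPM per kilobase against 15.9 to 19.0 in the other libraries. Per kilobase the receptors kept the order Erbb2, Egfr, Erbb3, Erbb4 in each library, with no overlap between neighbours in that order. Erbb2 stood at 13.2 to 15.0 CPM per kilobase, Egfr at 4.95 to 6.96, Erbb3 at 1.58 to 2.02 and Erbb4 at 0.018 to 0.036. The ratio of summed ligand to summed receptor level was 0.739 to 0.910 in 5 libraries and 12.3 in KO replicate 3.

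**Figure D2:**
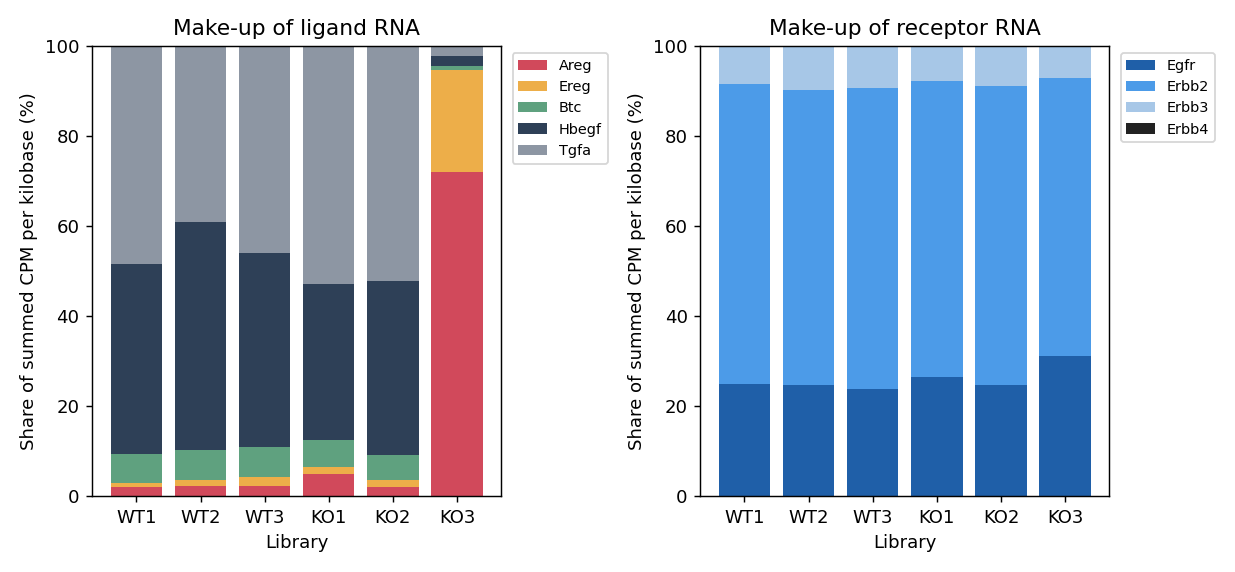
Stacked bars give each gene's share of the summed CPM per kilobase of the 5 ligands (left) and the 4 receptors (right) in each library. Tgfa and Hbegf fill most of the ligand bar in 5 libraries and Areg 71.9% of it in KO replicate 3, while Erbb2 fills 61.8 to 66.8% of the receptor bar throughout.

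High values in KO replicate 3 were also seen in the nearest neighbours of Areg and Ereg. Epgn held 338 counts (7.02 CPM) in KO replicate 3 and 1 to 4 counts in each other library, and the filter left it out of the test because it was low in 5 of 6 libraries. Gm19610, the antisense gene at Ereg, stood at 2.26 CPM in KO replicate 3 against 0.156 to 0.377 CPM elsewhere. It shares 141 exon bases with Ereg, and the part of Ereg reads in its counts was not tested. The noncoding gene Gm19619, which lies between Areg and Btc and was not tested, held 28 counts (0.581 CPM) in KO replicate 3 and 0 to 3 counts in each other library. The tested genes flanking this stretch, Mthfd2l and Parm1, were not highest in that library. Mthfd2l, a mitochondrial folate enzyme gene on the far side of Epgn, stood at 14.3 to 16.2 CPM in the WT libraries and at 13.2, 13.3 and 15.4 CPM in the KO libraries. Parm1, on the far side of Btc, stood at 71.0 to 135 CPM in the WT libraries and at 96.6, 151 and 74.1 CPM in the KO libraries. Within 500 kb of the 4 ligand genes, 12 genes were tested, and of the 9 besides Areg, Ereg and Btc, 1 (Gm19610) was highest in KO replicate 3 and 0 were called by edgeR. Among these 9, Cxcl1 had the lowest adjusted p and came close to a call (log2 fold change -1.28 ± 0.204 SE, adjusted p = 0.0512, edgeR). It stood at 3.48 to 5.39 CPM in the WT libraries and at 1.65 to 2.13 CPM in the KO libraries. Ppbp had the next lowest and went the other way (1.49, adjusted p = 0.3004, edgeR).

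**Figure D3:**
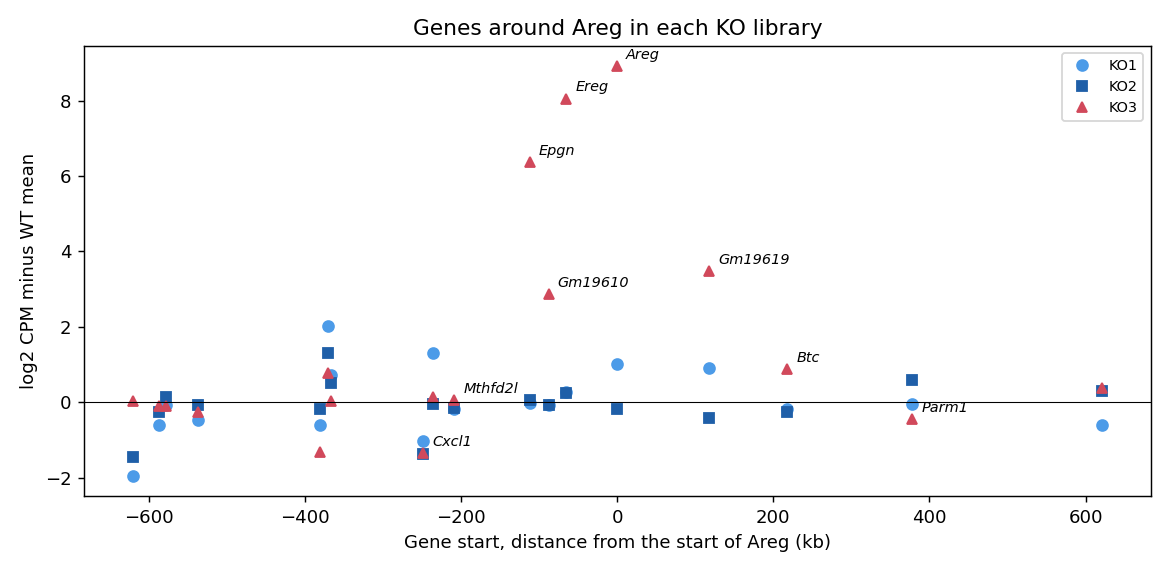
Difference of log2 CPM (prior count 2) from the WT mean in each KO library, for genes around Areg with at least 20 counts over the 6 libraries, placed by the distance of their start from that of Areg. The genes from Epgn to Btc stand above 0 in KO replicate 3 (triangles), and Mthfd2l and Parm1 on either side stand near or below 0.

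Across the 13472 protein-coding genes averaging at least 1 CPM, the profile of Areg over the 6 libraries was nearest to that of Ereg, at a Euclidean distance of 1.61 between log2 CPM profiles centred on their medians. Next came the orphan nuclear receptor gene Nr4a3 (2.40), Epgn (2.81), the progesterone receptor gene Pgr (4.10) and the prostaglandin synthase gene Ptgs2 (4.13). For Ereg the nearest were Areg, Nr4a3 (1.66), Epgn (2.14), Pgr (3.18) and Ptgs2 (3.20). Btc was nearest to Nab2 (0.20), Maff (0.24), Scin (0.24), Ier3 (0.26) and Chgb (0.26). Nab2, a corepressor of EGR factors, stood at 66.0 CPM in KO replicate 3 and at 33.6 to 39.1 CPM elsewhere. With 1 high library, such likeness says only that these genes share that library.

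The genes that feed the ligands gave no calls. Without KO replicate 3 edgeR called 0 genes of the lists of inputs, release, other ligands, relay and feedback. Of the 10 gonadotropin input genes 0 were called by edgeR, by DESeq2 (9 with an adjusted p) or by limma-voom, 1 had an unadjusted p under 0.05, and the median log2 fold change was 0.15 against 0.0039 for all tested genes. Lhcgr, the luteinizing hormone receptor gene, stood at 390, 310 and 352 CPM in the WT libraries and at 731, 390 and 503 CPM in the KO libraries (0.63 ± 0.23 SE, adjusted p = 0.486, edgeR). Its highest library was KO replicate 1, not KO replicate 3. The adenylyl cyclase gene Adcy9 (0.15 ± 0.07 SE) and the protein kinase A catalytic subunit gene Prkaca (0.17 ± 0.10 SE) did not pass either. Crem, a cyclic AMP-responsive transcription factor gene named after its values were seen, stood at 111 CPM in KO replicate 3 and at 9.97 to 13.1 CPM elsewhere. Of the 10 genes of ligand release, proteases such as Adam17 and their regulators, 0 were called by any of the 3 tools and 0 had an unadjusted p under 0.05 (median 0.05). Adam17, the main protease for amphiregulin, was even across libraries, at 161 to 172 CPM, and the protease inhibitor gene Timp3 had the smallest p (0.19 ± 0.10 SE, adjusted p = 0.596, edgeR). Adam19, Adam9, Adam15 and Rhbdf2, also of this list, had log2 fold changes between -0.19 and 0.11. The other EGF family ligands that were tested, Egf and Nrg1 to Nrg4, gave 0 calls of 5 by each tool and 0 at an unadjusted p under 0.05 (median -0.08), each at no more than 4.96 CPM in any library. The neuregulin genes Nrg4 (-0.34 ± 0.19 SE), Nrg1 (-0.21 ± 0.22 SE) and Nrg2 (0.05 ± 0.17 SE) had the smallest p among them.

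Downstream of the receptors, the relay genes were even and several feedback genes were highest in KO replicate 3. Of 19 RAS to ERK relay genes 0 were called by any of the 3 tools and 2 had an unadjusted p under 0.05 (median 0.04). The adaptor gene Gab1 stood at 64.9 to 72.6 CPM in WT and 60.7 to 62.5 CPM in KO (-0.16 ± 0.06 SE, adjusted p = 0.505, edgeR). The GTPase gene Hras had a log2 fold change of 0.16 ± 0.07 SE. The scaffold gene Ksr1 stood at 94.97 CPM in KO replicate 3 and at 42.4 to 53.8 CPM elsewhere. Of 17 feedback genes 0 were called by any of the 3 tools and 0 had an unadjusted p under 0.05 (median 0.12), and 13 were highest in KO replicate 3, as were 21.8% of all tested genes. Errfi1, which encodes the EGF receptor inhibitor MIG6, stood at 38.8, 34.4 and 32.1 CPM in WT, 28.5 and 33.9 CPM in KO replicates 1 and 2, and 86.7 CPM in KO replicate 3. Dusp6, the ERK phosphatase gene, stood at 34.2 CPM in KO replicate 3 and at 13.2 to 16.7 CPM elsewhere. Lrig3, of a family of ERBB regulators, stood at 15.9 CPM there and at 8.17 to 9.72 CPM elsewhere. Spry2, a brake on RAS signalling, stood at 25.3 CPM there and at 15.0 to 18.2 CPM elsewhere. Lrig1, a negative regulator of ERBB receptors (0.15 ± 0.07 SE), and Rnf41, a ubiquitin ligase gene that acts on ERBB3 (0.14 ± 0.07 SE), were also among the 3 with the smallest p of this list.

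Of the 12 genes known to respond to EGF-like ligands in the follicle, 11 were tested. Of these, 0 were called by edgeR, by DESeq2 (8 with an adjusted p) or by limma-voom, and 0 had an unadjusted p under 0.05. In KO replicate 3, 10 of the 11 were highest, as were 21.8% of all tested genes. The gene not tested, Il6, was lowest there, at 4 counts against 8 to 14 counts in each other library. The list did not sort genes by whether the ligands raise or lower them. The 10 included Nppc, Npr2 and Gja1, at 91.4, 237 and 5648 CPM there. Elsewhere these stood at 44.1 to 57.3, 185 to 218 and 3885 to 4680 CPM. The list median was 1.42 in KO replicate 3 and 0.12 and -0.07 in KO replicates 1 and 2, each against the WT mean in log2 CPM. Ptgs2, the enzyme of prostaglandin synthesis at ovulation, stood at 30.3 CPM in KO replicate 3 and at 0.871 to 1.34 CPM elsewhere. The hyaluronan-linking matrix gene Tnfaip6 stood at 20.7 CPM there and at 1.23 to 1.43 CPM elsewhere, and Pgr at 24.2 CPM against 0.730 to 1.19 CPM. Ptx3, a cumulus matrix gene, stood at 4.80 CPM there and at 1.58 to 2.09 CPM elsewhere. Tnc, the tenascin C gene, was lowest in KO replicate 3 (73.8 CPM, with 74.1 to 81.7 CPM in WT and 103 and 95.8 CPM in KO replicates 1 and 2), and it was the 1 gene of the list called without that library (0.37, adjusted p = 0.0150, edgeR).

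**Figure D4:**
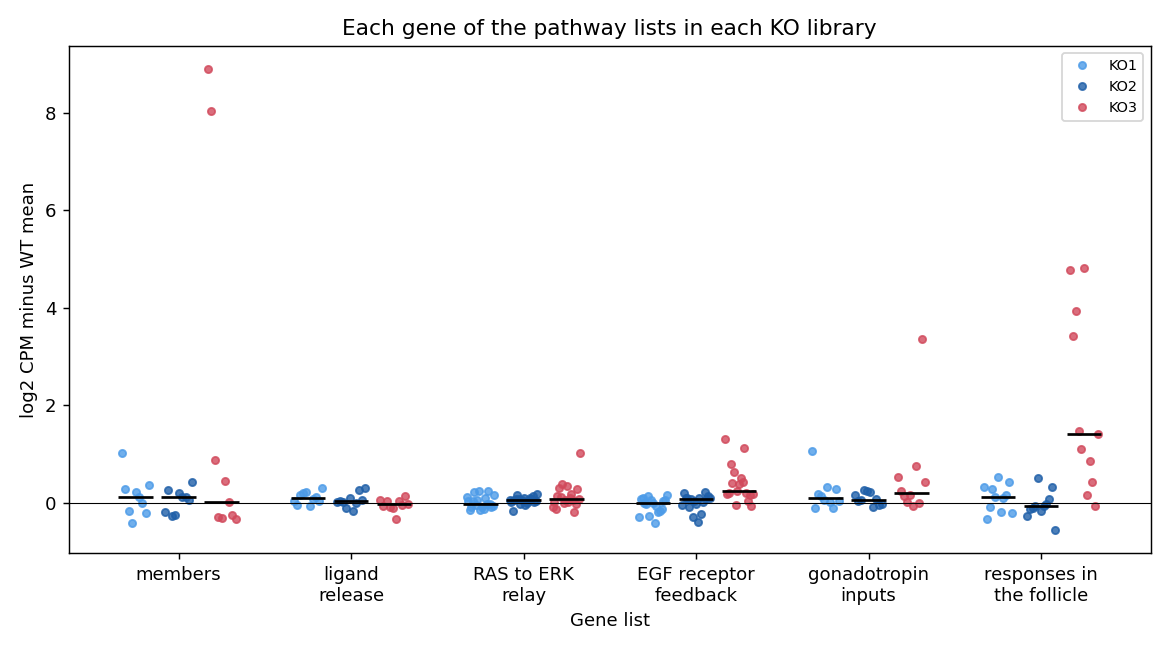
Each point is 1 tested gene, as its log2 CPM (prior count 2) in a KO library minus the WT mean, and black lines are list medians. In KO replicate 3 the median of the responses in the follicle is 1.42 and that of the feedback genes 0.23, while the medians of ligand release and of the relay lie at -0.04 and 0.08.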

How the data were processed

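RNA from granulosa cells was sequenced as read pairs in 6 libraries, per the labels' protocols. The submitters' processing notes name Trimmomatic 0.36, STAR 2.5.2b, Subread 1.5.2 with featureCounts, and the build GRCm38. The authors deposited raw whole-number counts for each gene, and the files also give each gene's exon length. The annotation release, strand setting and handling of multiply matching reads are not stated, so overlapping genes are uncertain.

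Gene identifiers were matched to GENCODE M21 (49056 of 49315). Counts were fitted with edgeR 4.0.16 in R 4.3.3 (filterByExpr, TMM, robust quasi-likelihood test, genotype as the only term), with calls at an adjusted p under 0.05. The members and gene lists were chosen with earlier results of these data known. Named genes are all members and, of each pathway list, any called and the 3 with the smallest p. For ligand release, feedback and responses the 3 with the largest ratio of highest to next highest library were added. Marker lists are given by their calls. Sums are given for the epithelial, oocyte, granulosa cell, endothelium and immune cell lists only. No rule set in advance chose which list stands beside which member. Adam17, the range of the other ligands, Cxcl1, Nppc, Npr2, Gja1, Inha, Inhba, Cyp19a1, Amh, Esr2 and Il6 were added after their values were seen. So were the sums of the oocyte markers. Promoters come from RefSeq (GRCm38.p6). On simulated data the fit recovered 37.3% of 1.5-fold, 71.6% of 2-fold and 93.9% of 4-fold changes, and 5.59% of its calls were false. Smaller changes were not simulated. No simulated library was set apart from the rest as KO replicate 3 was, so these rates may not hold for the measured data. Alternatives were RLE, upper quartile, DESeq2 1.42.0, limma-voom (limma 3.58.1), no robust option, 2 other filters, the replicate number as a block and leaving out each library.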

Additional observations from a re-analysis of the deposited data

How the results depend on the processing

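Of the 7 members besides Areg and Ereg, 0 were called under each of the 14 alternatives; the filter at a mean of 1 CPM left 6 of them. Of their 97 recomputed fold changes 91 kept their sign, and the lowest adjusted p was 0.164. The sign of Btc turned with limma-voom (-0.11). Leaving out 1 library gave ranges of -0.23 to 0.44 for Btc, -0.041 to 0.21 for Tgfa, -0.0032 to 0.077 for Erbb2 and -0.081 to 0.38 for Erbb4, each with a change of sign. The range was 0.59 to 8.03 for Areg and 0.20 to 7.04 for Ereg, with the lowest value of both without KO replicate 3. With limma-voom, which weights libraries by quality, Areg was at 1.12 and Ereg at 1.21; the cause was not tested.

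Over all genes, 23 higher and 17 lower calls became 97 and 102 with no filter, 11 and 10 with a filter at a mean of 1 CPM, 127 and 94 with DESeq2, and 37 and 35 with limma-voom. Leaving out 1 library gave 6 to 324 higher and 2 to 97 lower, with the highest of both without KO replicate 3. The cause was not tested. With the replicate block there were 10 and 5. The deviations of same-numbered libraries from their group means correlated at -0.0165, 0.074 and -0.0326, and replicate 2 alone correlated best with its own number. With 3 libraries per group the deviations cancel within a group, so these values cannot decide whether the numbers pair the libraries. By raw CPM in place of CPM per kilobase, Areg made up 42.6% of ligand RNA in KO replicate 3, below Ereg (46.1%), and Egfr (49.0%) was above Erbb2 (44.9%) in that library. By the same measure Tgfa made up 69.9% of ligand RNA in WT replicate 1 (48.4% per length) and Erbb2 50.9% of receptor RNA in WT replicate 1 (66.6% per length), since longer genes gather more counts.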
